A study of Saccharomyces cerevisiae with 4 samples.

Results

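The transcripts of the yeast mitochondrial genome were taken as every feature of the count table with a systematic name that starts with Q0, which marks mitochondrial ORFs, together with the ribosomal RNAs 15S_rRNA and 21S_rRNA. These were 30 of 7445 features, namely 2 rRNAs, 7 subunits of the respiratory chain and ATP synthase, the mitoribosomal protein VAR1, 10 ORFs encoded in introns and 10 other ORFs. Yeast of the W303 background was compared in 2 groups, trf4Δ (trf4::HphMX4, TRF4 replaced by a hygromycin resistance cassette) in 2 libraries and wild type (WT) in 2 libraries, all grown exponentially in YPDA, a rich glucose medium, at 25 °C. TRF4, listed as PAP2, encodes a nuclear enzyme that adds short poly(A) tails to RNAs destined for decay by the exosome. The counts of PAP2 were 21 and 40 in trf4Δ, against 8102 and 8468 in WT, so the libraries matched their labels. Library totals were 53516242 and 54176921 counts in trf4Δ, against 56363561 and 57964567 counts in WT. The labels do not say that the libraries of a group came from separate cultures, so the p-values measure only the spread between these samples, and they name no batch.

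Yeast mitochondria keep a small circular-mapping genome that is very rich in A and T and is transcribed by a dedicated single-subunit RNA polymerase. It encodes core subunits of cytochrome c oxidase, of the bc1 complex and of ATP synthase, a ribosomal protein, the mitochondrial rRNAs and the tRNAs. Long precursor transcripts are cut into single RNAs, and the precursors of COX1, COB and 21S_rRNA carry self-splicing introns, many of which hold an ORF for a splicing factor (maturase) or a DNA endonuclease. In glucose medium, yeast ferments and keeps the level of respiratory components low.

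All positions refer to the mitochondrial chromosome of the sacCer3 (R64) reference, which has 85779 bases of which 17.1% are G or C. The sequence of W303 mitochondria was not used. Mitochondrial transcription starts at a nonanucleotide, and the letters ATATAAGTA were searched on both strands and found 11 times on the plus strand and 3 times on the minus strand. They are shown in capitals with 30 bases on each side upstream of the members called in the test below, COB, OLI1 and 21S_rRNA, and of 15S_rRNA and COX1, to which their counts are compared.
15S_rRNA, chrM:6432-6500, plus strand: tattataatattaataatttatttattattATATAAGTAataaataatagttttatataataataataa
COX1, chrM:13319-13387, plus strand: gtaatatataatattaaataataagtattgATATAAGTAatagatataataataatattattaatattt
COB, chrM:34848-34916, plus strand: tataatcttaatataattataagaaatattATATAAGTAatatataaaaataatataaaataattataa
OLI1 distal copy, chrM:46041-46109, plus strand: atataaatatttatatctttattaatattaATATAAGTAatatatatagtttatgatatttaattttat
OLI1 proximal copy, chrM:46119-46187, plus strand: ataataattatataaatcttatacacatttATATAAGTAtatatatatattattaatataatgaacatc
21S_rRNA, chrM:57970-58038, plus strand: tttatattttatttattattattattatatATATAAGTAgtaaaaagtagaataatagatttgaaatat
The copy ended 1 base before the annotated start of 21S_rRNA, 76 bases before 15S_rRNA and 461 bases before COX1. OLI1, which encodes the c-ring subunit of ATP synthase, had 2 copies, 644 and 566 bases before its start. The copy nearest to COB lay 1654 bases upstream, with 1 tRNA gene between them. The nearest upstream copies lay 8366 bases before COX2 and 13821 bases before COX3, with many tRNA genes between. Of 13 distinct annotated starts of members, 4 had a copy within 1000 bases on the same strand, and 11.7% of all 1000-base windows of the plus strand held a copy. Absence of these letters from a window says nothing about transcription there.

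A string common to the 3′ flanks was searched as the longest one present on the plus strand within 150 bases downstream of the largest number of the 8 coding ends of the respiratory subunits and VAR1. It is shown because it holds the element at which mitochondrial mRNAs are cut at their 3′ ends and to which the nuclear-encoded protein RMD9 binds.
Shared 3′ string: TAATAATATTCTT
It began 68 bases after the end of COX1, 86 after ATP6, 97 after COB, 62 after COX2 and 100 after COX3. ATP8, OLI1 and VAR1 had no match within 150 bases, and 0.965% of all 150-base windows of the plus strand held the string. Because the string was chosen from these same ends, this rate is no test of its matches. Absence of these exact letters does not show that the element is absent.

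The introns of COX1 hold the mitochondrial features with the most counts in these libraries, so junctions of its introns are given, with the last 10 exon bases before the capitals and the first 5 intron bases in capitals. COX1 intron 3 and the intron of 21S_rRNA are given beside them for contrast.
COX1 intron 1: ttatttaatgGTGCGcctct
COX1 intron 2: atgattttctGTGCGccgtt
COX1 intron 7: ggacattttcGTGCGgtctg
COX1 intron 3: ttttggtaacCAAAAaagat
21S_rRNA intron 1: gctagggataATTTAccccc
GTGCG is the typical start of a group II intron, a class whose RNA excises as a branched lariat and whose ORFs encode reverse transcriptases with maturase activity. It opened 3 of the 13 annotated introns, namely introns 1, 2 and 7 of COX1, and occurred 10 times on the plus strand of the whole genome. Introns 1 and 2 of COX1 hold the ORFs AI1 and AI2. COB intron 1 opened with the similar letters GTGAG. Absence of the exact letters GTGCG does not show that an intron is of another class.

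The mitochondrial features together took 0.916% and 1.30% of the library total in trf4Δ, against 0.726% and 0.879% in WT. The 95% Clopper-Pearson intervals, which cover counting error only, were 0.914 to 0.919% and 1.29 to 1.30% in trf4Δ and 0.724 to 0.728% and 0.876 to 0.881% in WT. The groups did not overlap, although trf4Δ replicate 1 lay only just above WT replicate 2. The mean share was 1.11 ± 0.268% in trf4Δ and 0.802 ± 0.108% in WT (SD, n = 2 each), 1.38 times as high in trf4Δ. An exact permutation test, two-sided, gave p = 0.3333, the smallest value that 2 against 2 libraries allow. The ratio was 1.14 without trf4Δ replicate 2 and 1.61 without trf4Δ replicate 1. On the scale of TMM-scaled CPM, which sets a count against the library size after a correction for library composition, the same sum was 8143 and 11660 in trf4Δ and 8032 and 9925 in WT. On that scale the groups overlapped, the ratio was 1.10, and the exact permutation p was 0.667. In these bulk RNA samples, a different number of mitochondrial genomes per cell and a different amount of RNA per genome cannot be told apart.

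Libraries of the same genotype also differed in mitochondrial content. The share in replicate 2 was 1.41 times that in replicate 1 in trf4Δ and 1.21 times in WT. Of the classes, rRNA took 0.0365% and 0.0480% of the library in trf4Δ, against 0.0250% and 0.0247% in WT. Respiratory subunits took 0.229% and 0.305% in trf4Δ, against 0.225% and 0.233% in WT. These overlapped, whereas the rRNA shares did not. Intron ORFs took 0.642% and 0.928% in trf4Δ, against 0.467% and 0.612% in WT, and were the largest class in each of the 4 libraries. VAR1 took 0.00169% and 0.00227% in trf4Δ, against 0.00127% and 0.00122% in WT.

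**Figure D1:**
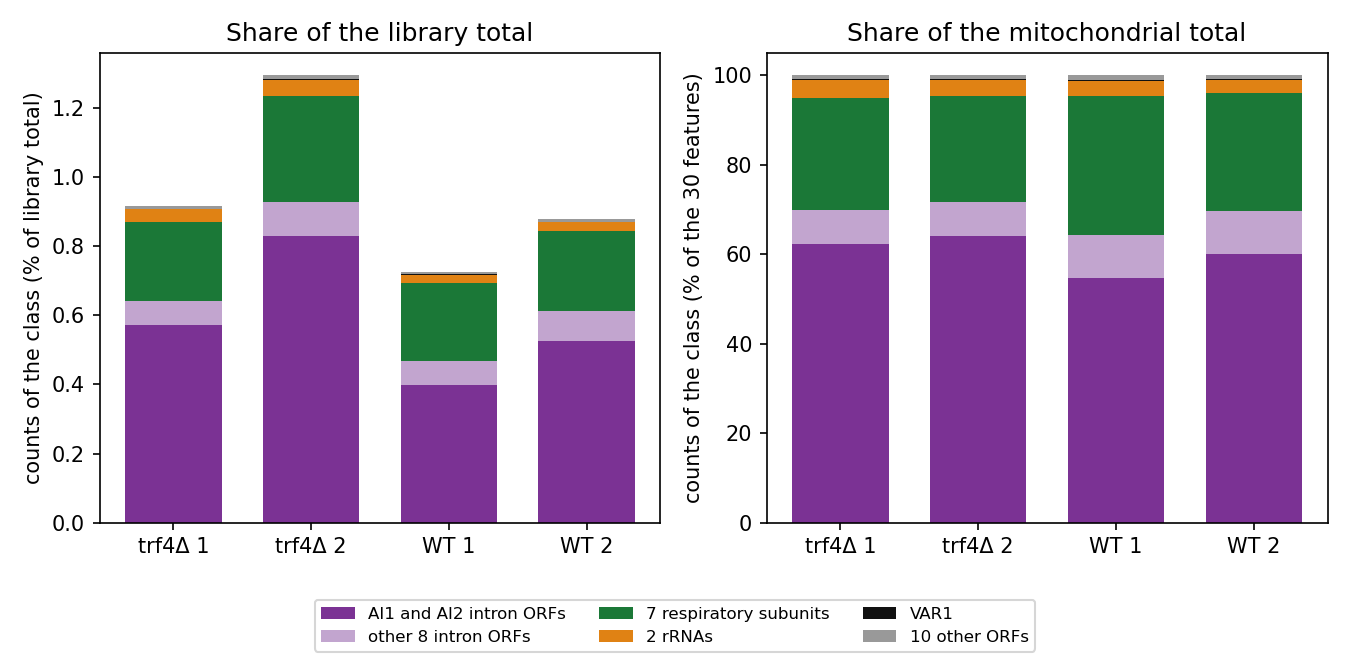
Stacked bars give the counts of each class of mitochondrial feature in the 2 trf4Δ and 2 WT libraries, on the left as percent of the library total and on the right as percent of the counts of the 30 mitochondrial features. The total was 0.916% and 1.30% in trf4Δ and 0.726% and 0.879% in WT, and AI1 with AI2 made up 62.4% and 64.1% of the mitochondrial counts in trf4Δ and 54.8% and 60% in WT.

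Of the 30 features, 26 had enough counts to be tested and 4 had not. Of these 4, Q0017 and Q0297 had 0 counts in each library, the counts of Q0092 were 1 and 2 in trf4Δ, against 0 and 5 in WT, and those of Q0144 were 7 and 14 in trf4Δ, against 7 and 8 in WT. At an adjusted p under 0.05 in edgeR's quasi-likelihood test, 21S_rRNA and OLI1 were higher and COB was lower in trf4Δ, which is 3 of 26 or 11.5%. Over the 6372 features tested, the same call was made for 60.1%, with 31.3% higher and 28.9% lower. The share called among the members was thus below that of the whole table. The groups did not overlap in TMM-scaled CPM for 8 of the 26 (30.8%), against 81.9% of all features tested. The median log2 fold change of the 26 was −0.0004, beside 0.01 for all features tested, and 13 of the 26 values were positive. This median depended on the trf4Δ library used. It was 0.19 without trf4Δ replicate 1 and −0.19 without trf4Δ replicate 2, beside 0.0061 and 0.0198 for all features tested. The class medians were 0.44 for rRNA, 0.16 for respiratory subunits, −0.13 for intron ORFs and −0.0004 for the other ORFs.

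The scaling between libraries changed how many members were called. With library size alone in place of TMM, 9 members were higher and 0 were lower, while 49.6% of all features were called higher and 61.2% were called in either direction, 3162 higher and 739 lower against 1992 higher and 1840 lower with TMM. That scaling moved the median of all features to 0.34 on the log2 scale and the members' median to 0.32, so the members again lay close to the median feature. COX2, COX3, AI4, AI5_ALPHA, AI5_BETA, BI2, BI3, Q0143 and Q0255 changed sign under it. Without trf4Δ replicate 1 there were 5 members called higher and 0 lower, and without trf4Δ replicate 2 there was 1 higher and 8 lower. Without WT replicate 1 the counts were 1 higher and 2 lower, and without WT replicate 2 they were 2 higher and 0 lower.

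**Figure D2:**
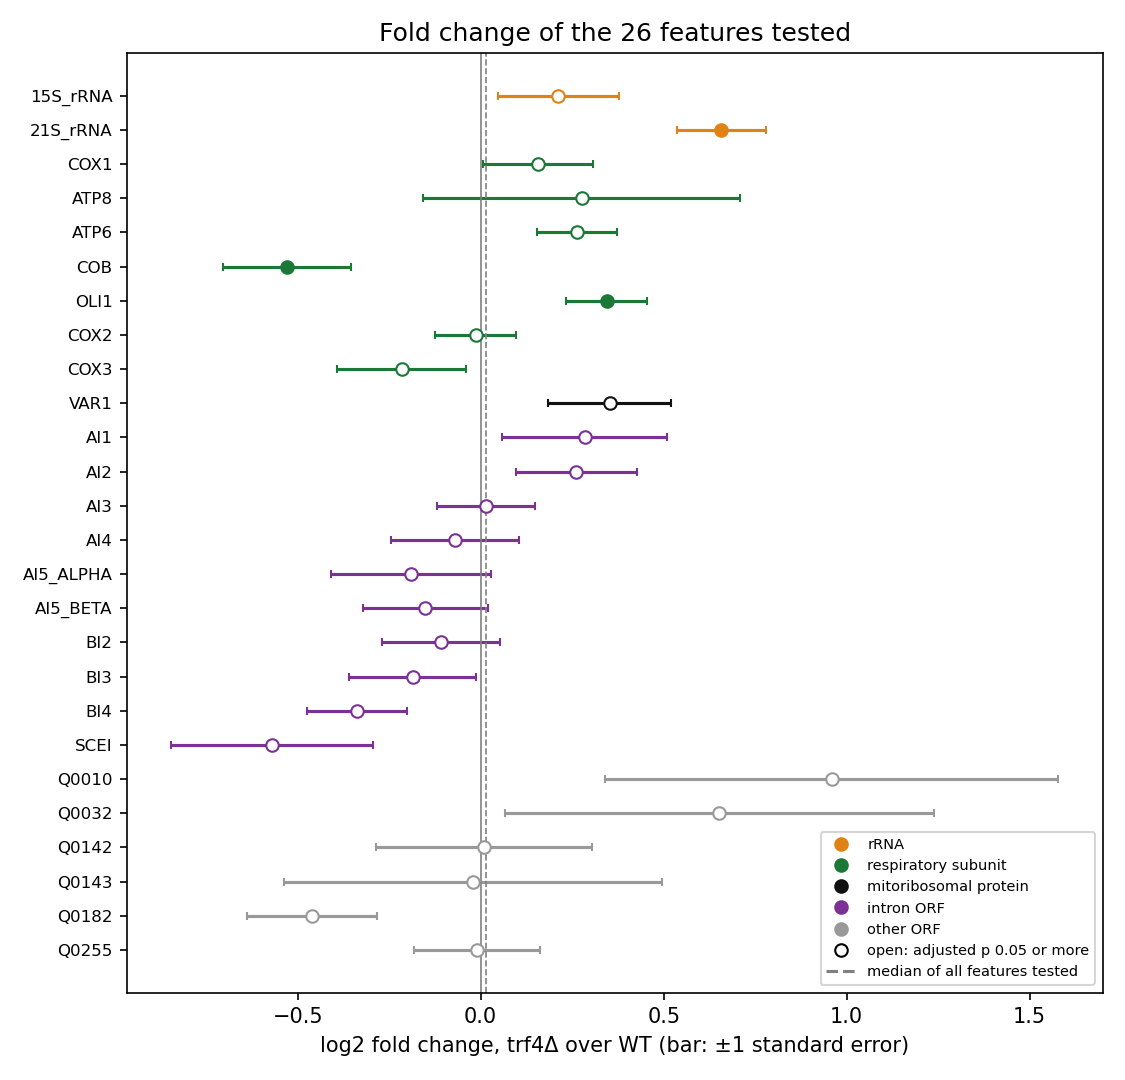
Each point is the log2 fold change of a mitochondrial feature, trf4Δ over WT, with a bar of 1 standard error to each side, filled where the adjusted p was under 0.05 and coloured by class. The filled points are 21S_rRNA at 0.66, OLI1 at 0.34 and COB at −0.53, and the dashed line marks the median of all features tested at 0.01.

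The rRNA values describe what was left after removal of rRNA from the RNA samples, so they are not levels of rRNA in the cells. The large mitoribosomal rRNA, 21S_rRNA (chrM:58009-62447, 2 exons), had 189 and 234 TMM-scaled CPM in trf4Δ and 126 and 141.7 in WT. Both trf4Δ libraries lay above both WT libraries. Its log2 fold change was 0.66 (SE 0.12, adjusted p = 0.00243). The call held without each library in turn, with values of 0.50 to 0.80. The small mitoribosomal rRNA, 15S_rRNA (chrM:6546-8194), had 136 and 198 CPM in trf4Δ and 151 and 137 CPM in WT. Its trf4Δ libraries lay on either side of the WT libraries, and its log2 fold change of 0.21 (SE 0.17, adjusted p = 0.294) did not pass. It changed sign, to −0.09, without trf4Δ replicate 2. The count of 21S_rRNA was 1.39 and 1.18 times that of 15S_rRNA in trf4Δ, against 0.835 and 1.03 times in WT. Whether the removal step took the same fraction of both rRNAs in every library was not tested.

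COB (chrM:36540-43647, 6 exons) encodes cytochrome b, the mitochondrial subunit of the bc1 complex. It had 362 and 545 CPM in trf4Δ and 664 and 643 CPM in WT. The WT libraries lay close together and above both trf4Δ libraries, which differed from each other by more than the nearer of them differed from WT. The log2 fold change was −0.53 (SE 0.17, adjusted p = 0.0311). The call was lost without trf4Δ replicate 1 (−0.26, adjusted p = 0.0632), without WT replicate 1 (−0.50, adjusted p = 0.0944) and without WT replicate 2 (−0.55, adjusted p = 0.0740). With library size alone the value was −0.21 with an adjusted p of 0.326.

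The subunits of cytochrome c oxidase did not pass the test. COX1 (chrM:13818-26701, 8 exons), the subunit that holds the heme a3 and copper centre, had 248 and 332 CPM in trf4Δ and 237 and 283 CPM in WT. COX2 (chrM:73758-74513), which takes electrons from cytochrome c, had 556 and 662 CPM in trf4Δ and 595 and 634 CPM in WT. COX3 (chrM:79213-80022), the remaining core subunit, had 428 and 649 CPM in trf4Δ and 608 and 643 CPM in WT. In each of the 3 the groups overlapped, and in COX3 only trf4Δ replicate 1 stood apart, below the others. Their log2 fold changes were 0.16 (SE 0.15) for COX1, −0.01 (SE 0.11) for COX2 and −0.22 (SE 0.18) for COX3. COX3 was called lower, at −0.55, without trf4Δ replicate 2.

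ATP synthase has 3 mitochondrial subunits. OLI1 (chrM:46723-46953), the subunit of the rotating ring, had 223 and 267 CPM in trf4Δ and 183 and 203 CPM in WT. The groups did not overlap, and the log2 fold change was 0.34 (SE 0.11, adjusted p = 0.0285). The call was lost without trf4Δ replicate 2 (0.21, adjusted p = 0.162) and without WT replicate 1 (0.27, adjusted p = 0.141). ATP6 (chrM:28487-29266), the subunit of the proton channel, had 204 and 248 CPM in trf4Δ and 185 and 192 CPM in WT. It did not overlap between groups either, but its log2 fold change of 0.26 (SE 0.11) had an adjusted p of 0.0702. ATP8 (chrM:27666-27812), a short membrane subunit transcribed with ATP6, had 16.6 and 47.8 CPM in trf4Δ and 20.4 and 32.8 CPM in WT. In both groups replicate 2 was the higher for ATP8, and its log2 fold change of 0.28 carried a standard error of 0.43. It changed sign without trf4Δ replicate 2 (−0.68) and without WT replicate 1 (−0.03). ATP6 counts were 12.3 and 5.19 times those of ATP8 in trf4Δ, against 9.07 and 5.86 times in WT.

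VAR1 (chrM:48901-50097) encodes a protein of the small mitoribosomal subunit. It had 15 and 20.5 CPM in trf4Δ and 14.0 and 13.8 CPM in WT. These did not overlap, with a log2 fold change of 0.35 (SE 0.17, adjusted p = 0.103). It was the lowest of the members with an annotated length, at 12.5 and 17.1 CPM per kb in trf4Δ and 11.7 and 11.5 CPM per kb in WT. OLI1 had 967 and 1155 CPM per kb in trf4Δ and 791 and 880 CPM per kb in WT. COX3 had 529 and 801 CPM per kb in trf4Δ, against 751 and 794 CPM per kb in WT, and ATP6 had 261 and 318 CPM per kb in trf4Δ, against 237 and 246 CPM per kb in WT. The order of these 4 genes, OLI1 above COX3 above ATP6 above VAR1, was the same in each of the 4 libraries, although OLI1 and COX3 lay within their spread of each other in WT.

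**Figure D3:**
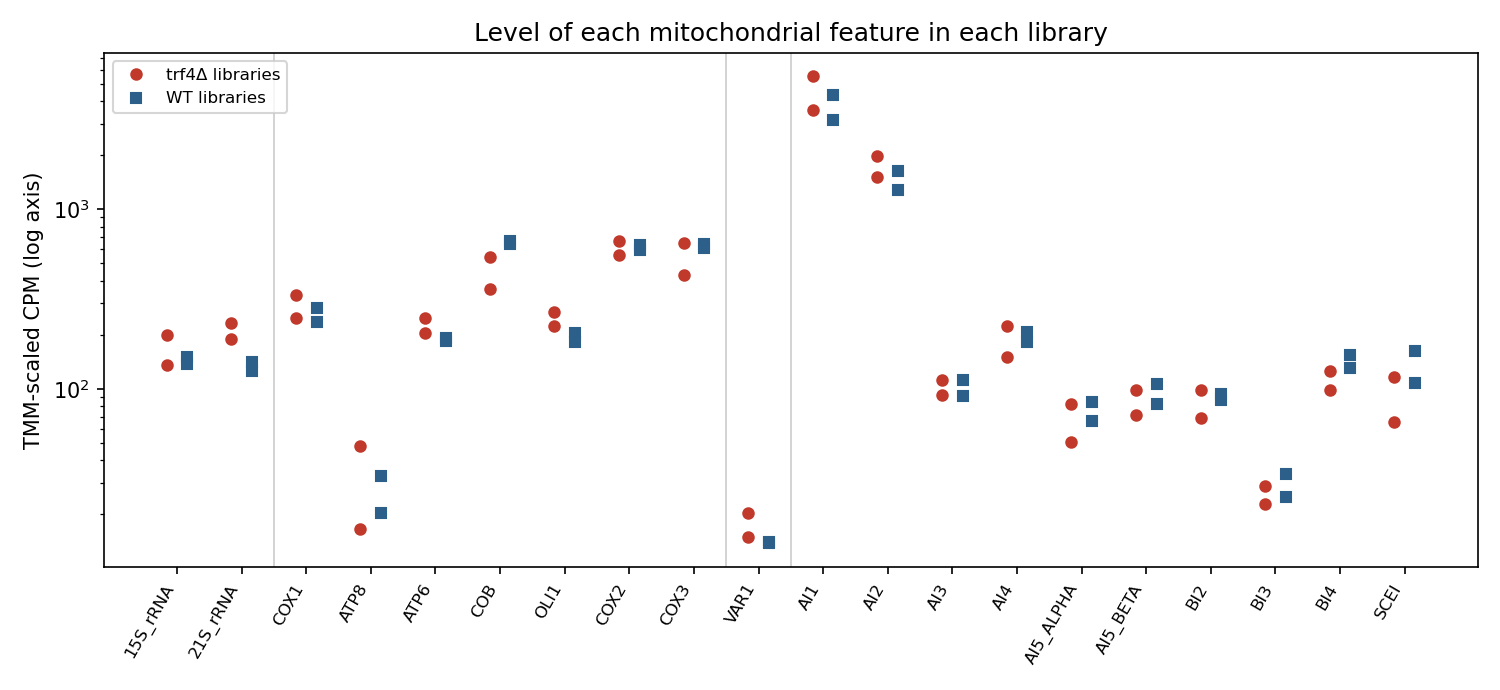
Circles are the 2 trf4Δ libraries and squares the 2 WT libraries, with the TMM-scaled CPM of each tested rRNA, respiratory subunit, VAR1 and intron ORF on a log axis. AI1 stands at the top with 3566 and 5497 CPM in trf4Δ and 3122 and 4320 CPM in WT, and VAR1 is lowest with 13.8 to 20.5 CPM.

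Since the libraries differed in total mitochondrial content, each member was also expressed as a share of the counts of the 30 mitochondrial features, which does not depend on the scaling between libraries. These shares are descriptions and were not tested. COB made up 4.44% and 4.67% of the mitochondrial counts in trf4Δ, against 8.27% and 6.48% in WT. COX3 made up 5.26% and 5.57% in trf4Δ, against 7.57% and 6.48% in WT. On this scale the 2 trf4Δ libraries lay close together, below both WT libraries, for either gene, whereas in TMM-scaled CPM COX3 overlapped. Groups that did not overlap were common on this scale, also for VAR1, AI1, AI2, AI4 and BI2, while 15S_rRNA, ATP6, COX2 and AI3 overlapped. The share of 21S_rRNA was 2.32% and 2.0% in trf4Δ, against 1.57% and 1.43% in WT. That of OLI1 was 2.74% and 2.29% in trf4Δ, against 2.28% and 2.05% in WT, where the nearest libraries of the groups almost met. COX1 overlapped between groups, at 3.04% and 2.85% in trf4Δ and 2.95% and 2.85% in WT. COB counts were 1.46 and 1.64 times those of COX1 in trf4Δ, against 2.81 and 2.28 times in WT. They were 0.844 and 0.839 times those of COX3 in trf4Δ, against 1.09 and 1.00 times in WT. All respiratory subunits together made up 25.0% and 23.6% of the mitochondrial counts in trf4Δ, against 31.0% and 26.5% in WT. Most of this denominator is AI1 and AI2 in every library. As a share of the library the subunits had a mean ratio, trf4Δ over WT, of 1.17, and in TMM-scaled CPM of 0.934. The groups overlapped on both of these scales, so the direction depends on the scale.

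**Figure D4:**
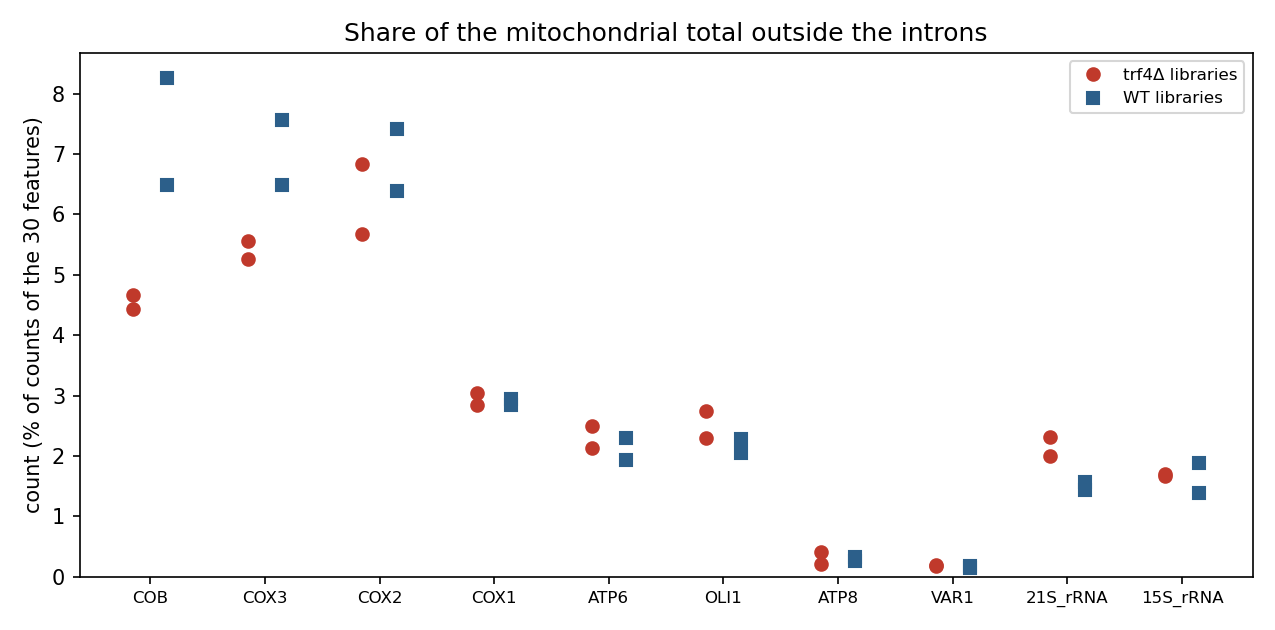
Each gene outside the introns is given as percent of the counts of the 30 mitochondrial features, with circles for the 2 trf4Δ libraries and squares for the 2 WT libraries. COB lies at 4.44% and 4.67% in trf4Δ and 8.27% and 6.48% in WT, whereas COX1 lies between 2.85% and 3.04% in all 4 libraries.

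AI1 and AI2, the maturase and reverse transcriptase ORFs of the group II introns 1 and 2 of COX1, dominated the mitochondrial counts. AI1 had 214770 and 330752 counts in trf4Δ and 158998 and 221738 counts in WT. AI2 had 91227 and 118935 counts in trf4Δ and 65082 and 83937 counts in WT. Per kb of exon shared with no other feature, AI1 had 1527 and 2353 CPM in trf4Δ and 1336 and 1849 CPM in WT, above OLI1, COX3 and ATP6 in every library. COB, most of whose exon bases are shared, had 900 and 1355 CPM per kb in trf4Δ and 1652 and 1600 CPM per kb in WT. On this denominator COB lay above AI1 in WT replicate 1. Any reads counted for COB in its shared exons would make these values too high, so its rank beside AI1 is uncertain. Together AI1 and AI2 took 62.4% and 64.1% of mitochondrial counts in trf4Δ, against 54.8% and 60% in WT. Neither passed the test, with a log2 fold change of 0.28 (SE 0.23, adjusted p = 0.302) for AI1 and 0.26 (SE 0.16, adjusted p = 0.202) for AI2. With library size alone both were called higher.

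The other 8 intron ORFs took 7.61% and 7.60% of the mitochondrial counts in trf4Δ, against 9.60% and 9.63% in WT. The libraries of a group were nearly equal here and the groups did not overlap, but most of this denominator is AI1 and AI2. As a share of the library the same 8 took 0.0697% and 0.0984% in trf4Δ, against 0.0697% and 0.0846% in WT, with a mean ratio of 1.09, and in TMM-scaled CPM the mean ratio was 0.872. The groups overlapped on both of these scales, so the direction depends on the scale. In the test over all features, 0 of the 10 intron ORFs passed in edgeR, beside 60.1% of all features tested. Of the 10, 1 had an unadjusted p under 0.05 and DESeq2 called 1, which was BI4. BI4, the maturase of COB intron 4, which also serves the splicing of COX1 intron 4, had 98.7 and 126 CPM in trf4Δ and 130 and 154 CPM in WT. Its log2 fold change was −0.34 (SE 0.14, adjusted p = 0.0636). SCEI, the endonuclease I-SceI of the 21S_rRNA intron (chrM:61022-61729), had 65.2 and 117 CPM in trf4Δ and 108 and 163 CPM in WT. Its groups overlapped, and its log2 fold change was −0.57 (SE 0.28, adjusted p = 0.109). The remaining 6, which are AI3, AI4, AI5_ALPHA and AI5_BETA of COX1 and the maturase ORFs BI2 and BI3 of COB, had log2 fold changes of −0.19 to 0.01 and overlapped between groups.

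The ratio of an intron ORF to its host gene was formed within each library. SCEI had 0.346 and 0.502 counts per count of 21S_rRNA in trf4Δ, against 0.856 and 1.15 in WT. The mean ratio in trf4Δ was 0.423 times that in WT, or 0.593 times with the counts of the whole locus as the denominator. The libraries were made from rRNA-depleted RNA, and the part of the depletion in this ratio was not tested. Relative to COX1, AI4 had ratios of 0.604 and 0.672 in trf4Δ and 0.771 and 0.737 in WT. AI5_ALPHA had 0.203 and 0.247 in trf4Δ and 0.280 and 0.299 in WT, and AI5_BETA had 0.289 and 0.296 in trf4Δ and 0.348 and 0.375 in WT. These 3 ORFs, which are homing endonucleases or of unknown function, were thus lower in both trf4Δ libraries than in either WT library. AI3 had 0.374 and 0.339 in trf4Δ and 0.384 and 0.396 in WT, while AI2 lay on the other side, with 6.12 and 5.96 in trf4Δ and 5.40 and 5.78 in WT. With whole-locus counts as the denominator AI2 overlapped between groups, and AI3, AI4, AI5_ALPHA and AI5_BETA did not. AI1 overlapped between groups, with 14.4 and 16.6 in trf4Δ and 13.2 and 15.3 in WT.

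Within the COB gene, the intron ORFs lay higher relative to their host in trf4Δ for BI2 and BI3. BI2 had 0.190 and 0.181 counts per count of COB in trf4Δ, against 0.130 and 0.146 in WT, and the mean ratio was 1.34 times as high in trf4Δ. BI3 had 0.0629 and 0.0527 in trf4Δ and 0.0376 and 0.0522 in WT, which nearly met. With the counts of the whole locus as the denominator BI2 still did not overlap between groups, whereas BI3 did. BI4 overlapped, with 0.273 and 0.231 in trf4Δ and 0.195 and 0.239 in WT. The counts of COB with its 3 intron ORFs made up 6.78% and 6.84% of the mitochondrial total in trf4Δ, against 11.3% and 9.32% in WT. Most of that total is AI1 and AI2. As a share of the library the same locus took 0.0621% and 0.0886% in trf4Δ, against 0.0818% and 0.0819% in WT, and the groups overlapped. In TMM-scaled CPM they did not overlap, with a mean ratio of 0.737. The mean share of the mitochondrial total in trf4Δ was 0.618 times that in WT for COB itself, against 0.835 times for BI2, 0.810 times for BI3 and 0.724 times for BI4.

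**Figure D5:**
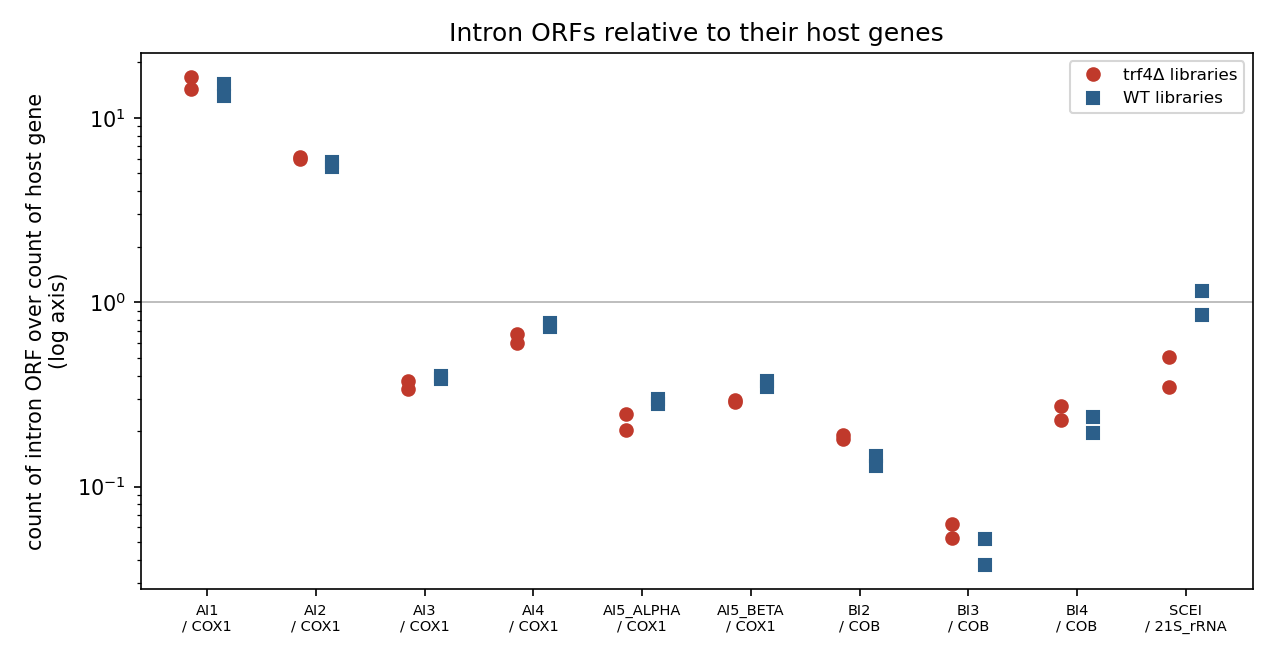
The count of each intron ORF is divided by the count of its host gene in the same library and drawn on a log axis, with circles for the 2 trf4Δ libraries and squares for the 2 WT libraries. SCEI lies at 0.346 and 0.502 in trf4Δ and 0.856 and 1.15 in WT, whereas AI1 lies between 13.2 and 16.6 in all 4 libraries.

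Intron ORFs of COX1 and COB begin in exons of their host, except AI5_BETA, which lies within intron 6 of COX1 and shares no exon base, so reads in those exons belong to several features. COX1 has 1605 exon bases of which 633 belong to no other feature, and COB has 1158 of which 402 belong to no other feature. BI3 shares 506 exon bases with COB and would have had 9517 and 14319 counts in trf4Δ and 14781 and 14429 counts in WT from an even spread of COB counts over its exons. It had 1371 and 1728 counts in trf4Δ and 1273 and 1723 counts in WT. Reads in shared exons were therefore not counted in full for each feature, and all values of COX1, COB and their intron ORFs are uncertain to that extent. Whether counting used strand is not given in the sources used here, so reads from an antisense RNA cannot be told apart.

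Among the other ORFs, whose products are dubious or not characterised, 6 of 10 were tested and 0 passed in edgeR, beside 60.1% of all features tested. Of the 6, 1 had an unadjusted p under 0.05 and DESeq2 called the same 1, Q0182. Q0255 (chrM:74495-75984), downstream of COX2, was the most abundant, with 3396 and 4952 counts in trf4Δ and 3309 and 3830 counts in WT. Q0182 had 449 and 577 counts in trf4Δ and 564 and 635 counts in WT, and its log2 fold change was −0.46 (SE 0.18, adjusted p = 0.0551). Q0010, Q0032, Q0142 and Q0143 had 5 to 106 counts per library and standard errors of 0.29 to 0.62. Of the 24 mitochondrial tRNA features, 19 were tested and 0 passed in edgeR, beside 60.1% of all features tested. Likewise 0 passed in DESeq2 or had an unadjusted p under 0.05, with log2 fold changes of −0.66 to 0.63. Counts of the 24 were 0 to 527 per library and standard errors were 0.30 to 0.65, so smaller changes could have been missed. RPM1, the RNA of mitochondrial RNase P, which trims tRNA 5′ ends, had 179 and 232 counts in trf4Δ and 239 and 227 counts in WT (log2 fold change −0.42, adjusted p = 0.148).

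Of the nuclear genes listed for mitochondrial gene expression, 32 of 54 (59.3%) passed the test, near the 60.1% of all features. The 54 include MGT1, not called, and CBP4, called higher, whose products do not act in mitochondrial gene expression. The split by direction was 6 higher and 26 lower, whereas 31.3% of all features were higher and 28.9% lower. The median log2 fold change of the 54 was −0.23. With library size alone the split was 16 higher and 5 lower. The 26 lower became 15 without trf4Δ replicate 1 and 17 without either WT replicate, and the 6 higher became 2 without WT replicate 1 and 3 without WT replicate 2. Of 4 genes listed for transcription 3 were lower, including RPO41, the mitochondrial RNA polymerase, at −0.41 (SE 0.08), and MTF1, its promoter specificity factor, at −0.54 (SE 0.14). The other, RPM2, encodes the protein subunit of mitochondrial RNase P and was not called (0.13, SE 0.15). Of 15 genes for RNA processing, stability and decay, 3 were higher and 9 lower. NCA3, linked to expression of ATP8 and ATP6, was higher at 1.35 (SE 0.14). CBP1, which stabilises COB mRNA, was lower at −0.64 (SE 0.10), with 53.7 ± 3.52 CPM in trf4Δ and 83.7 ± 4.21 CPM in WT (SD, n = 2 each). RMD9, which binds the 3′ element shown above, was lower at −0.70 (SE 0.11). Whether these had a part in the values of COB or of the other mRNAs was not tested.

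Beside the 60.1% of all features called, the share was 36.4% for intron splicing, 61.5% for translational activators and 50.0% for maintenance of mitochondrial DNA. Of 11 genes for intron splicing, 0 were higher and 4 lower, led by MSS116, a DEAD-box helicase for group I and group II introns, at −0.76 (SE 0.09), with QRI5 at −0.45 and MRS2, a magnesium channel, at −0.37. Of 13 genes listed as translational activators, 3 were higher and 5 lower. Those called higher include CBP4, at 0.43 (SE 0.13), which encodes an assembly factor of the bc1 complex and not an activator. ATP22, the activator of ATP6, was higher at 0.58 (SE 0.10), while PET309, the activator of COX1, was lower at −0.47 and CBS2, an activator of COB, at −0.45. Of 12 genes listed for maintenance of mitochondrial DNA, 0 were higher and 6 lower, with NUC1, a mitochondrial nuclease, at −0.64, the helicase PIF1 at −0.51 and the helicase HMI1 at −0.66. The 12 include MGT1 (YDL200C), a DNA repair methyltransferase that is not known for this role and was not called. MTF2, which acts in transcription and RNA processing, was lower at −0.36.

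Nuclear-encoded subunits of the same 3 complexes, with the ATPase inhibitor protein INH1 listed among them, passed the test in 10 of 34 cases, 2 of them higher and 8 lower. This is 29.4%, against 60.1% of all features. Their median log2 fold change was −0.22, and library size alone gave 6 higher and 0 lower. The 8 lower became 0 without trf4Δ replicate 1, 16 without trf4Δ replicate 2, 1 without WT replicate 1 and 3 without WT replicate 2. Cytochrome c oxidase had 2 higher and 3 lower of 10. The 2 were COX5B, the isoform of subunit 5 used at low oxygen, at 0.95 (SE 0.11) and COX26 at 0.96 (SE 0.21), while COX8 was lower at −0.34. In the bc1 complex, the partner of COB, 0 of 9 passed in edgeR, 0 had an unadjusted p under 0.05 and DESeq2 called 1, with log2 fold changes of −0.41 to −0.03. Of ATP synthase 5 of 15 were lower, including ATP20 at −0.62, ATP18 at −0.41 and ATP19 at −0.45. The 15 include INH1, which was not called.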

How the data were processed

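RNA was sequenced from 2 trf4Δ and 2 WT libraries of rRNA-depleted total RNA (ScriptSeq, paired ends of 76 bases, HiSeq). Per the submitters' processing notes, STAR 2.5.3 and the sacCer3 build were used. The authors deposited a table of raw counts per feature, with no normalization. The counting program and its strand setting are not given in the sources used here. Counts were fitted with edgeR 4.0.16 in R 4.3.3 (filterByExpr, TMM scaling, quasi-likelihood test, genotype only, two-sided), with Benjamini-Hochberg adjustment over the 6372 features kept and a threshold of 0.05. The fit was tested on simulated data with the same spread for every gene and few changed genes. Because many features were called here, that test does not cover the effect of scaling on these calls. Shares carry 95% intervals. A count of 3 corresponded to 0.0498 to 0.0589 TMM-scaled CPM. Alternatives comprised DESeq2 1.42.0, other scalings, filters and thresholds, and each library left out. The TMM-scaled total was added after seeing the data. All members were accounted for. Of each list of nuclear genes, up to 3 members with the smallest adjusted p under 0.05 were named. Members and lists were chosen with earlier results of these data known. Replicates were numbered in accession order. Gene positions and names came from RefSeq, which held 21 of the 30 members.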

Additional observations from a re-analysis of the deposited data

How the results depend on the processing

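With TMM as the scaling, 2 members were higher and 1 lower, and these counts were the same with DESeq2-type size factors, scaling from nuclear ORFs, either filter and robust fitting. DESeq2 called 3 lower. A threshold of 0.01 left 1 higher and 0 lower, and in the nuclear lists 2 higher, 14 lower and 0 subunits lower, whereas 0.1 gave 3 members lower. Library size alone gave 9 higher and 0 lower, 3162 and 739 over all features, 16 and 5 for nuclear genes of mitochondrial expression and 6 and 0 for subunits, with a members' median of 0.32. It reversed COX2 to 0.31, COX3 to 0.10, AI4 to 0.25, AI5_ALPHA to 0.13, AI5_BETA to 0.17, BI2 to 0.21, BI3 to 0.14, Q0143 to 0.30 and Q0255 to 0.31. Values near 0 also changed sign with at least 10 counts in every library (COX2 0.0061, Q0255 0.010) and with DESeq2 or its size factors (Q0142 −0.0046). With whole-locus counts the trf4Δ over WT ratio of SCEI to 21S_rRNA was 0.593, since its own counts then enter the denominator.

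With each library left out in turn, members called higher ranged from 1 to 5 and lower from 0 to 8, nuclear genes higher from 2 to 6 and lower from 15 to 21, and subunits lower from 0 to 16. These fits tested fewer samples, and a lone library was assumed to vary like the other group. Log2 fold changes that changed sign ranged from −0.0895 to 0.46 for 15S_rRNA, −0.0698 to 0.35 for COX1, −0.68 to 0.84 for ATP8, −0.15 to 0.11 for COX2, −0.55 to 0.0512 for COX3, −0.0617 to 0.56 for AI1, −0.13 to 0.18 for AI3, −0.39 to 0.19 for AI4, −0.59 to 0.12 for AI5_ALPHA, −0.40 to 0.058 for AI5_BETA, −0.39 to 0.13 for BI2, −0.38 to 0.0476 for BI3, −0.17 to 1.17 for Q0032, −0.21 to 0.20 for Q0142, −0.36 to 0.45 for Q0143 and −0.31 to 0.24 for Q0255. No paired analysis was possible because the labels carry no replicate numbers. Depth was not the limit for the abundant members, whose spread lay between libraries.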
